A study of Mus musculus with 4 samples.

Results

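The NR4A orphan nuclear receptors are 3 of the 54532 genes in a table of read counts from mouse adrenal glands: Nr4a1, Nr4a2 and Nr4a3. Their rows were found by gene symbol. The family was chosen by its differences between dexamethasone and PBS in these same libraries, so its values in that comparison are given as a description, with no test. Both groups were adult male C57BL/6 mice with no genetic change named in the labels. In the treated group 5 mice received 10 µg of dexamethasone, a synthetic glucocorticoid, into the peritoneum, and in the control group 5 mice received PBS, the vehicle. The glands were taken 1 h later, and the right gland of each mouse was used. Glands were pooled within a group into a library of 2 mice and a library of 3 mice, so n = 2 libraries per group, and the labels do not say which replicate is which pool. Each library averages its animals, so the spread between libraries is that between pools, not between mice. Counts assigned to genes summed to between 21904510 and 26948588 per library.

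NR4A receptors are transcription factors called orphans because they act without a known classical hormone ligand, and their activity follows mainly from how much of the protein a cell makes. Nr4a1 (Nur77), Nr4a2 (Nurr1) and Nr4a3 (Nor1) are immediate early genes, transcribed within minutes of a stimulus and without prior protein synthesis. In the adrenal cortex, corticotropin from the pituitary raises cyclic AMP, which activates protein kinase A and the factor CREB, and NR4A genes are among the early targets of that route. The proteins bind a DNA element named NBRE as single molecules, and Nr4a1 and Nr4a2 can also pair with retinoid X receptors. Dexamethasone activates the glucocorticoid receptor and lowers pituitary release of corticotropin.

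Nr4a1 (ENSMUSG00000023034) lies on chromosome 15 of GRCm38 from 101254269 to 101274795 on the plus strand, Nr4a2 (ENSMUSG00000026826) on chromosome 2 from 57106830 to 57124003 on the minus strand, and Nr4a3 (ENSMUSG00000028341) on chromosome 4 from 48045153 to 48086447 on the plus strand. These coordinates equal those of GENCODE M21, which gives the genes 4, 6 and 4 transcripts. No other gene in the table overlaps any of the 3. The table places all of them in the transcription factor family NGFIB-like. RefSeq (GRCm38.p6) promoter windows were found for all 3, from 250 bases before to 50 bases after a transcription start. They are shown because the members were lower together after dexamethasone and because each window holds several copies of TGACG, the core of the cyclic AMP response element (CRE) that CREB binds. The RefSeq start of Nr4a1 lies 12577 bases inside the gene as the table bounds it, that of Nr4a3 lies 152 bases inside and that of Nr4a2 coincides with the table's end. Capitals mark TGACG on either strand, so that CGTCA is the same core read from the other strand.
Nr4a1 (chr15:101266596-101266895, plus strand): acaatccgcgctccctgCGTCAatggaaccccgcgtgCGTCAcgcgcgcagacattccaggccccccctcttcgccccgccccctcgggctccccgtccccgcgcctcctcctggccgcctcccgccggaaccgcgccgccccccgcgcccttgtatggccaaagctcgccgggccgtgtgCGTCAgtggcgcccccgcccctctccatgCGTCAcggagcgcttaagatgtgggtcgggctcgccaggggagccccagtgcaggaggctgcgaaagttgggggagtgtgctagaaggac
Nr4a2 (chr2:57123954-57124253, minus strand): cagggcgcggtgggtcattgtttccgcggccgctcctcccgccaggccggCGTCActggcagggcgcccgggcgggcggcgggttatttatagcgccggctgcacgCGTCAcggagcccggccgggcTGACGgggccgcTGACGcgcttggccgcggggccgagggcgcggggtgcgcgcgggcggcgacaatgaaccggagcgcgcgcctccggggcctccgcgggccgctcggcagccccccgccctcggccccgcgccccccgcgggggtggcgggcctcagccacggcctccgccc
Nr4a3 (chr4:48045055-48045354, plus strand): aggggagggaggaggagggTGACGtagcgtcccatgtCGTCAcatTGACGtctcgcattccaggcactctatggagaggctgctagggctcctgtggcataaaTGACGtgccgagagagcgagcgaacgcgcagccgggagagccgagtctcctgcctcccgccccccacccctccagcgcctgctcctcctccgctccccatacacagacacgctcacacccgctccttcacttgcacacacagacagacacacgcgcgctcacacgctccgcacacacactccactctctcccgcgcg

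Each window held 4 copies of TGACG. At least 1 copy stood in 20.8% of 32841 mouse promoter windows of the same length, and at least 4 in 0.231% of them. The windows are shown partly for these copies, so the shares are given as a description. The core holds a CpG and the 3 windows are rich in G and C (72.3%, 81.7% and 64.7%, against a median of 52.7%). Among the 6056 windows with 64.7% to 81.7% G and C, 32.7% held the core and 0.578% held 4 or more. In Nr4a1 all 4 copies read CGTCA in the direction of the gene, at 233, 213, 69 and 40 bases before the start, and each was part of TGCGTCA. That longer form was picked after the sequence was seen; searched on both strands as TGACGCA, it stood in 2.12% of all windows, and 1 window, that of Nr4a1, held 4. In Nr4a2 the copies lay 200 to 107 bases before the start and in Nr4a3 231 to 143 bases before it. The complete CRE (TGACGTCA, in 1.79% of windows), the NBRE (AAAGGTCA, 1.51%), the glucocorticoid receptor core AGAACA (19.0%) and the CArG box bound by serum response factor (1.63%) had no match in any of the 3. SP1 boxes (GGGCGG, in 35.7% of windows) numbered 3, 5 and 1 in Nr4a1, Nr4a2 and Nr4a3. The Nr4a2 window alone among the 3 had a match to the MEF2 site (3.19% of windows), which overlapped its match to TATAAA (13.6%). All motifs were searched on both strands, and a match of letters is a description of the window.

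**Figure D1:**
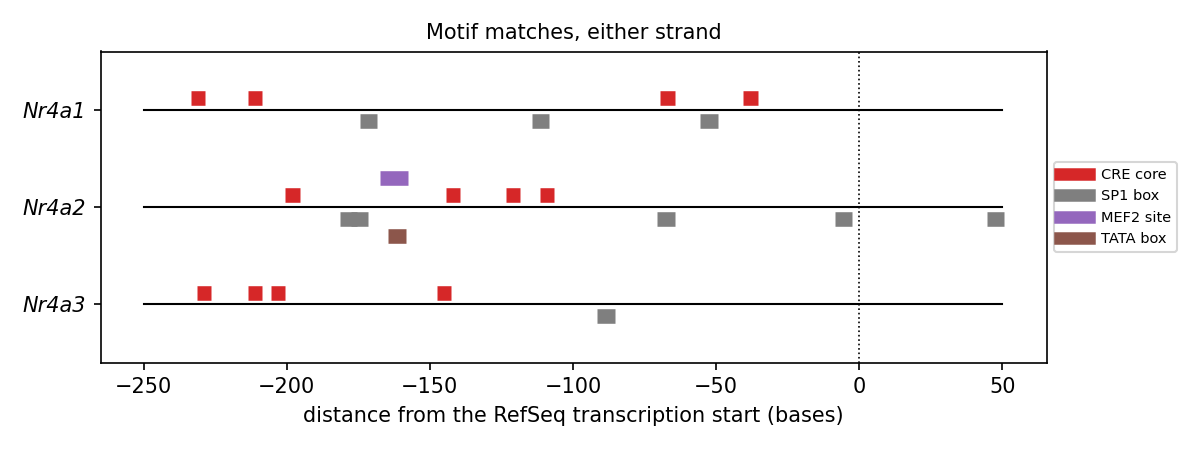
Motif matches in the promoter windows of the 3 NR4A genes, by distance in bases from the RefSeq transcription start (0, dotted line); coloured blocks are matches on either strand. Each gene has 4 CRE cores (TGACG), all before the start.

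Transcripts of all 3 receptors were less abundant in both dexamethasone libraries than in either PBS library. Values are CPM, a gene's counts relative to the library total, with totals scaled by the TMM method. Nr4a1 stood at 481 and 217 CPM in PBS replicates 1 and 2 and at 32.5 and 34.5 CPM in dexamethasone replicates 1 and 2. The PBS libraries were far apart from each other and the dexamethasone libraries close, and the groups did not overlap. Its mean was 349 ± 186 CPM (SD, n = 2) after PBS and 33.5 ± 1.44 CPM after dexamethasone, a log2 fold change of −3.38 ± 0.33 (SE of the fit across all genes).

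Nr4a2 was the least abundant member, at 11.3 and 40.1 CPM in PBS replicates 1 and 2 and at 8.002 and 8.724 CPM in dexamethasone replicates 1 and 2. The groups did not overlap, but PBS replicate 1 lay near the dexamethasone libraries and PBS replicate 2 alone was high. Its mean was 25.7 ± 20.4 CPM (SD, n = 2) after PBS and 8.36 ± 0.51 CPM after dexamethasone, with a log2 fold change of −1.61 ± 0.47 (SE). Without PBS replicate 2 that fold change was −0.44, and without PBS replicate 1 it was −2.28.

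Nr4a3 stood at 123 and 153 CPM in PBS replicates 1 and 2 and at 69.5 and 84.2 CPM in dexamethasone replicates 1 and 2. The groups did not overlap, and with all libraries the difference was the smallest of the 3 members. Without PBS replicate 2 its order with Nr4a2 was reversed, with −0.69 for Nr4a3 and −0.44 for Nr4a2. The mean of Nr4a3 was 138 ± 21.3 CPM (SD, n = 2) after PBS and 76.8 ± 10.4 CPM after dexamethasone, with a log2 fold change of −0.85 ± 0.17 (SE). Leaving out each library in turn gave −0.69 to −1.01 for Nr4a3 and −2.71 to −3.85 for Nr4a1, whose nearest value to 0 came without PBS replicate 1.

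Of all 16027 genes tested, 29.7% had both dexamethasone libraries below both PBS libraries, as all 3 members did. Nothing is read from that count, since this contrast chose the members. Ordered from the most negative fold change, Nr4a1 was number 6, Nr4a2 number 94 and Nr4a3 number 638 of the 16027. Fold changes in this data set ran with the listed gene length, with a median of −0.42 in the shortest decile of protein-coding genes and 0.33 in the longest. Genes of the members' own length deciles had medians of −0.08, −0.01 and 0.10 for Nr4a1, Nr4a2 and Nr4a3, and with the length trend taken out of each library the members stood at −3.35, −1.61 and −0.97. In whole glands, fewer cells of a type and less RNA per cell cannot be told apart.

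**Figure D2:**
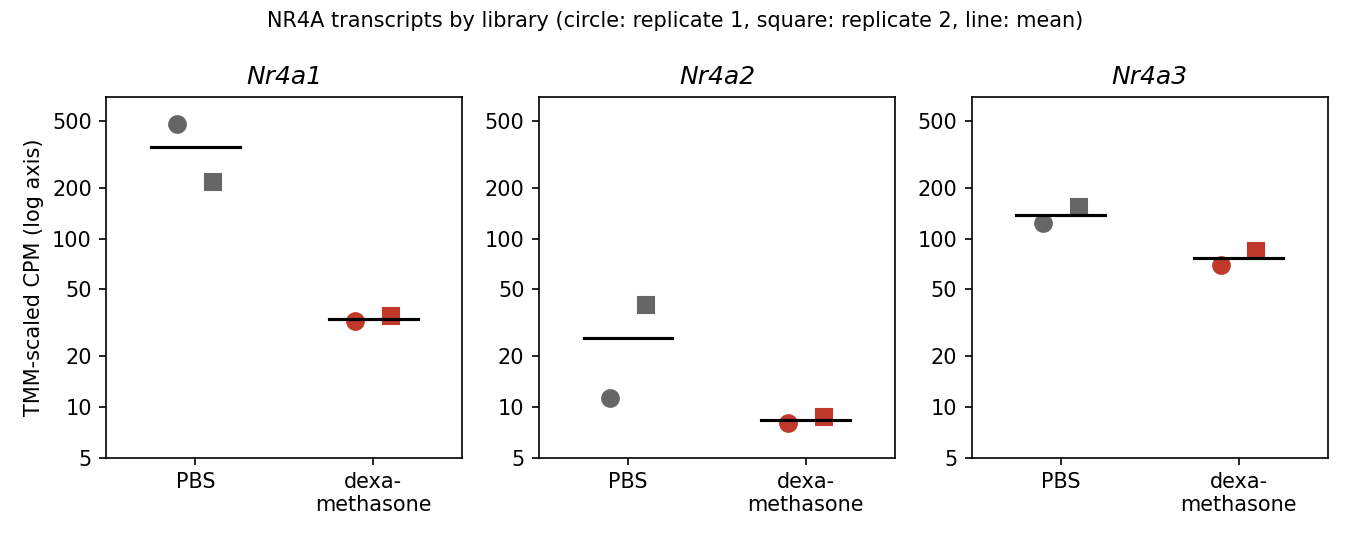
TMM-scaled CPM of each NR4A gene on a log axis, in the PBS (grey) and dexamethasone (red) libraries; circles are replicate 1, squares replicate 2 and lines the group mean. Every dexamethasone library lies below both PBS libraries, and PBS replicate 1 is the higher PBS library for Nr4a1 (481 against 217 CPM) but the lower one for Nr4a2 (11.3 against 40.1 CPM).

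The make-up of the family differed between the groups. Divided by the listed gene length (3509, 4059 and 5987 bases for Nr4a1, Nr4a2 and Nr4a3), the summed level of the 3 genes was 160.4 and 97.4 CPM per kilobase in PBS replicates 1 and 2 and 22.8 and 26.1 CPM per kilobase in dexamethasone replicates 1 and 2. The ratio of the group means was 5.27, and it ran from 3.74 to 7.02 over single pairs of libraries. Nr4a1 made up 85.4% and 63.5% of this sum in PBS replicates 1 and 2 and 40.5% and 37.8% in dexamethasone replicates 1 and 2. Nr4a3 made up 12.8% and 26.3% in the PBS libraries and 50.8% and 54.0% in the dexamethasone libraries. The leading member was thus Nr4a1 in both PBS libraries and Nr4a3 in both dexamethasone libraries. Nr4a2 held 1.73% and 10.1% of the sum after PBS and 8.63% and 8.25% after dexamethasone, so its share overlapped between the groups.

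The order of levels per kilobase was the same in the libraries of a group. After PBS, Nr4a1 (99.5 ± 53.1, SD, n = 2) stood above Nr4a3 (23.1 ± 3.56), and Nr4a3 above Nr4a2 (6.33 ± 5.03). After dexamethasone, Nr4a3 (12.8 ± 1.73) stood above Nr4a1 (9.55 ± 0.41), whose libraries spanned 9.26 to 9.84 against 11.6 to 14.1 for Nr4a3, and Nr4a2 (2.06 ± 0.13) was below both. With CPM not divided by length Nr4a3 led after dexamethasone too, at 64.6% of the sum against 28.3% for Nr4a1.

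**Figure D3:**
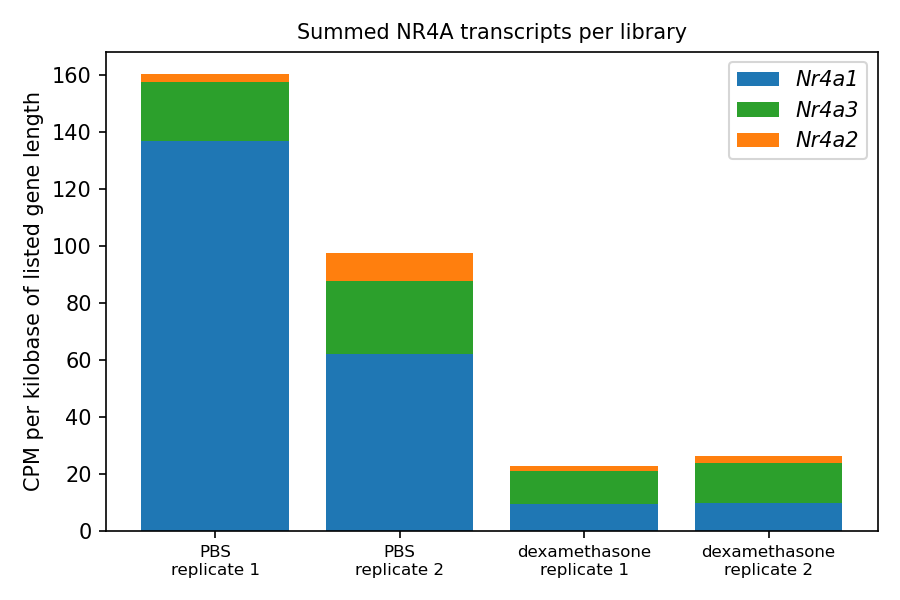
Stacked bars of CPM per kilobase of listed gene length for Nr4a1, Nr4a3 and Nr4a2 in each library. The total falls from 160.4 and 97.4 after PBS to 22.8 and 26.1 after dexamethasone, and most of the PBS bars is Nr4a1.

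The PBS pools differed from each other in opposite ways for Nr4a1 and Nr4a2. Nr4a1 was 2.21-fold higher in PBS replicate 1 than in PBS replicate 2 (95% counting interval 2.14 to 2.29, exact binomial on the 12768 and 4520 counts). Nr4a2 was 3.56-fold higher in PBS replicate 2 (3.12 to 4.08, 835 and 299 counts), and Nr4a3 1.24-fold higher there (1.19 to 1.31). These intervals cover counting error alone, and each gap lies outside it. The log2 gap between the PBS pools was 1.15 for Nr4a1 and 1.82 for Nr4a2, larger than in 96.6% and 99.0% of genes tested, for which the median gap was 0.23. For Nr4a3 it was 0.32, larger than in 63.7% of genes. Between the dexamethasone libraries the gaps were 0.09, 0.12 and 0.28 for Nr4a1, Nr4a2 and Nr4a3, and the median of all genes was 0.19.

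Other immediate early genes differed between the PBS pools as well, and mostly in the direction of Nr4a2. Of 29 tested on a list of 30 (NR4A genes left out), 8 were over 2-fold higher in PBS replicate 2 than in PBS replicate 1 and 0 were over 2-fold higher the other way, whereas among all genes tested these shares were 2.66% and 2.10%. The 8 were Fosb, Fosl1, Egr2, Egr3, Atf3, Maff, Crem and Cyr61. Maff, which encodes a small partner protein of basic leucine zipper factors, stood at 5.57 and 40.6 CPM in PBS replicates 1 and 2 and at 9.97 and 8.40 CPM in dexamethasone replicates 1 and 2. Crem, the gene of a cyclic AMP responsive modulator of CREB sites, stood at 54.1 and 261 CPM in the PBS libraries and at 44.8 and 43.0 CPM in the dexamethasone libraries. Both genes were high in PBS replicate 2 alone, as Nr4a2 was.

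Of the 29, 21 were higher in PBS replicate 2 and 8 in PBS replicate 1, the direction of Nr4a1. Egr1, a zinc finger factor gene, stood at 79.3 and 60.4 CPM in PBS replicates 1 and 2, and at 11.8 and 52.7 CPM after dexamethasone. Sik1, which encodes a kinase that restrains CREB coactivators, stood at 23.2 and 12.5 CPM in the PBS libraries and at 13.5 and 18.0 CPM in the dexamethasone libraries, where the groups overlapped. In the treatment comparison (quasi-likelihood test of edgeR, adjusted p under 0.05), which called 3.26% of all genes tested higher and 1.37% lower, 4 of the 29 fell (Junb, Jund, Egr3 and Ier2), 2 rose (Fosl2 and Dusp1) and 23 did not pass, with a median log2 fold change of −0.49 against 0.01 over all genes tested. Dusp1, a MAP kinase phosphatase gene, did not pass without dexamethasone replicate 2 (0.73) or PBS replicate 2 (0.51), nor did Ier2 without dexamethasone replicate 1 (−0.74). When the length trend was removed 2 of the 29 fell, where 204 of all 16027 genes tested did. With a library left out the count of lower genes moved for this list and for all genes, but not always in the same direction. Without dexamethasone replicate 2 it went up for this list and down for all genes.

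**Figure D4:**
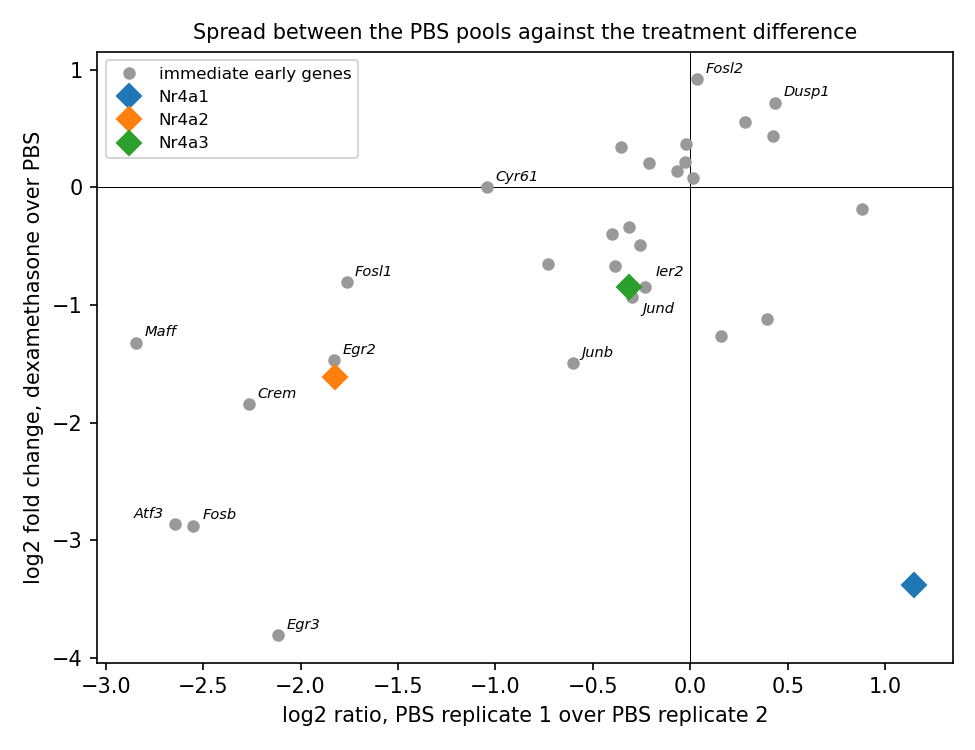
Grey points are the 29 immediate early genes tested and diamonds the NR4A genes: the x axis is the log2 ratio of PBS replicate 1 over PBS replicate 2 and the y axis the log2 fold change of dexamethasone over PBS. Nr4a1 is the point farthest right (1.15), Nr4a2 (−1.82) lies beside Egr2, and Nr4a3 (−0.32) lies near Ier2 and Jund.

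Levels of cell type markers moved with some of these differences, and their part in them was not tested. In PBS replicates 1 and 2 the summed level of 5 red blood cell markers was 225 and 394 CPM, that of 8 chromaffin cell markers 7770 and 11870 CPM, that of 5 fat cell markers 263 and 368 CPM and that of 4 zona glomerulosa markers 1283 and 1691 CPM, and every marker on these 4 lists was higher in PBS replicate 2. The 8 macrophage markers summed to 294 and 379 CPM; the complement genes C1qa, C1qb and C1qc were higher in PBS replicate 2 (70.4 and 104 CPM for C1qa), whereas Csf1r, the receptor gene of a macrophage growth factor, stood at 54.3 and 54.6 CPM and Mrc1, a mannose receptor gene, at 21.3 and 21.6 CPM. In the direction of Nr4a1, all 6 capsule and fibroblast markers were higher in PBS replicate 1, with sums of 710 and 642 CPM. Endothelial markers summed to 1003 and 966 CPM, markers of patrolling monocytes (blood cells that depend on Nr4a1) to 42.0 and 42.7 CPM, and the mitochondrial share of counts was 5.45% and 6.03%. By single genes, 5 of the 8 endothelial and 4 of the 5 patrolling monocyte markers were higher in PBS replicate 1, as were 8064 of all 16027 genes tested. Between the groups, where 3.26% of all genes tested were called higher and 1.37% lower, marker calls were as follows. The 9 cortex markers summed to 66240 and 69140 CPM after PBS and to 48900 and 45330 CPM after dexamethasone, and 3 of them fell (Nr5a1, Fdx1 and Scarb1). Both dexamethasone libraries lay below both PBS libraries for all 9 cortex, all 5 red blood cell and 0 of 8 chromaffin markers. They did so for 29.7% of all genes tested. Red blood cell markers summed to 147 and 137 CPM after dexamethasone and 3 of 5 fell; chromaffin markers, at 11270 and 8616 CPM, overlapped the PBS range and 0 of 8 passed (0 at an unadjusted p under 0.05). Endothelial markers summed to 996 and 1026 CPM after dexamethasone, and 0 of 8 passed (2 at an unadjusted p under 0.05). Of the 5 patrolling monocyte markers, 1 fell after dexamethasone, the chemokine receptor gene Cx3cr1 (17.2 and 16.0 CPM in the PBS libraries, 9.79 and 10.0 CPM in the dexamethasone libraries, −0.74 ± 0.17 SE, edgeR adjusted p = 0.0466), while Ace stood at 17.3 and 21.3 CPM after PBS and 32.6 and 28.1 CPM after dexamethasone without passing. Of the 8 macrophage markers 2 rose, Mrc1 (1.24 ± 0.14) and Cd163 (0.91 ± 0.22), and of the 4 zona glomerulosa markers the angiotensin receptor gene Agtr1b fell (−1.13 ± 0.23). Of the 6 capsule and fibroblast markers 0 passed (3 lower at an unadjusted p under 0.05). No marker on any list was at 0 in all 4 libraries, though Cd3d, Cd3e, Cd3g and Cd8a of the 6 T cell markers had too few counts to be tested. Markers of the cortex and of the medulla were both present.

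Among the genes of the nuclear receptor superfamily, 38 of 46 others had enough counts to be tested; 4 had no counts in any library. Of the 38, 2 fell, 1 rose and 35 did not pass, and their median log2 fold change was 0.10 (−0.07 once the length trend was removed). Over all genes tested the shares were 3.26% higher and 1.37% lower. Nr5a1, the gene of the factor SF-1 that drives steroid synthesis genes, stood at 1027 and 1001 CPM in PBS replicates 1 and 2 and at 387 and 405 CPM in dexamethasone replicates 1 and 2, and the libraries of each group lay close together. Its log2 fold change was −1.36 ± 0.14 (SE, edgeR adjusted p = 0.00461). Nr0b2, which encodes SHP, a receptor without a DNA-binding domain that represses others, stood at 43.1 and 42.6 CPM after PBS and 28.7 and 18.7 CPM after dexamethasone (−0.86 ± 0.20, adjusted p = 0.0494). Its call was lost without dexamethasone replicate 2 (−0.58), and also after removal of the length trend (−0.50). Nr2c2, the gene of the testicular receptor TR4, rose from 26.9 and 16.0 CPM to 42.5 and 49.3 CPM (1.09 ± 0.23, adjusted p = 0.0364) and did not pass with the length trend removed (0.71).

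Placed among these receptors, with 41 tested in all, the members were numbers 1, 2 and 6 from the most negative fold change. Nothing is read from these places, since this contrast chose the members. That of Nr4a2 also rests on PBS replicate 2, without which its log2 fold change was −0.44. In level per kilobase, Nr4a1 was number 2 of 41 after PBS, at 99.5, behind Nr5a1 at 239 CPM per kilobase, and number 15 after dexamethasone. Nr4a3 went from number 6 to number 13 and Nr4a2 from number 21 to number 31, while Nr5a1 was number 1 in both groups. The PBS places of Nr4a1 and Nr4a2 come from means of unlike libraries. Nr4a1 stood at 137 and 61.9 CPM per kilobase in PBS replicates 1 and 2, and Nr4a2 at 2.77 and 9.89. The mean of Nr1d1, number 3 after PBS, was 77.6 CPM per kilobase, which lies between the values of Nr4a1. Nr3c1, the gene of the glucocorticoid receptor itself, stood at 0.16 ± 0.18 (edgeR adjusted p = 0.618).

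**Figure D5:**
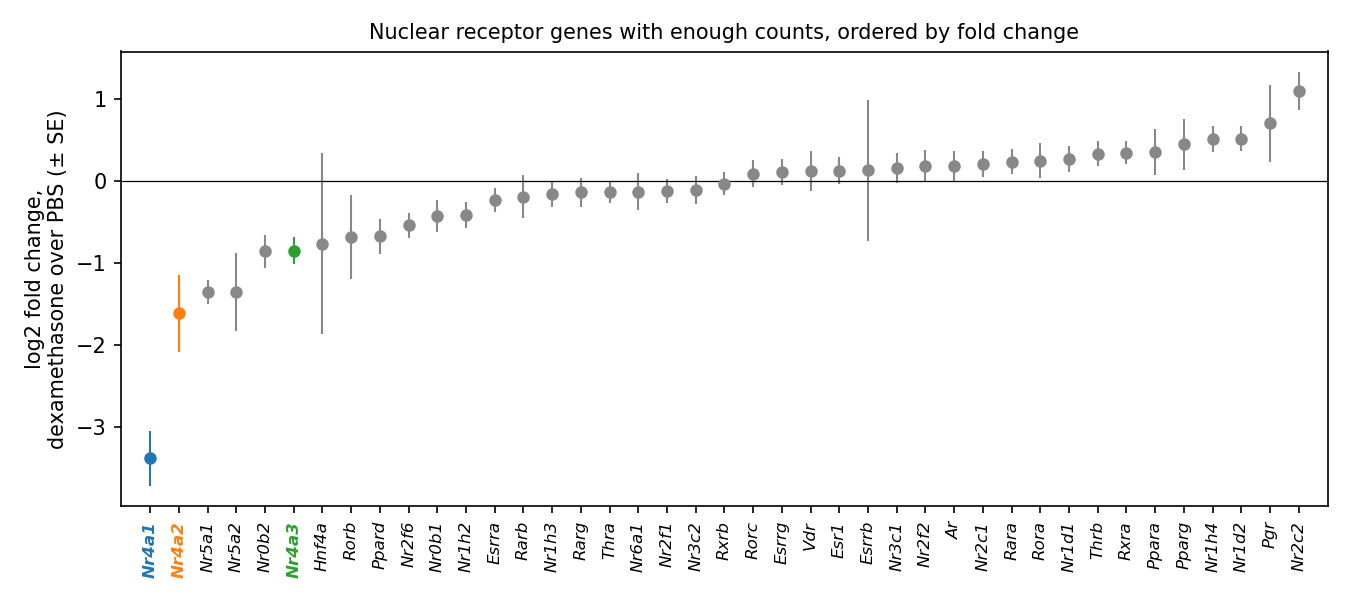
Log2 fold change of dexamethasone over PBS with its SE for the 41 nuclear receptor genes tested, in order, from n = 2 libraries per group; NR4A genes are coloured. Nr4a1 (−3.38) and Nr4a2 (−1.61) are at the low end, Nr4a3 (−0.85) is number 6 and Nr2c2 (1.09) is at the high end. The NR4A genes were chosen by this same contrast.

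The cyclic AMP route that leads to NR4A transcription was followed from the corticotropin receptor to CREB. Of 30 genes tested, 3 rose, 1 fell and 26 did not pass, where 3.26% of all genes were called higher and 1.37% lower, and the median log2 fold change was 0.14 against 0.01 over all genes. All 3 that rose encode adenylyl cyclases, which make cyclic AMP. Adcy1 stood at 10.2 and 11.2 CPM in the PBS libraries and at 28.8 and 25.3 CPM in the dexamethasone libraries (1.34 ± 0.17 SE, edgeR adjusted p = 0.00751). Adcy5 had a log2 fold change of 1.20 ± 0.16 (adjusted p = 0.00776) and Adcy9 0.91 ± 0.17 (0.0233), and neither of their groups overlapped. Mrap, which encodes the accessory protein that carries the corticotropin receptor to the cell surface, fell from 176 and 416 CPM to 122 and 87.6 CPM (−1.50 ± 0.35, adjusted p = 0.0463). By DESeq2 it did not pass (−1.52, adjusted p = 0.0982), nor with the length trend removed (−1.21). The receptor gene Mc2r stood at −0.40 ± 0.16 (adjusted p = 0.142), Gnas, the gene of the stimulatory G protein, at −0.06 ± 0.14 (0.826), and Crem at −1.84 ± 0.55 (0.0792).

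A calcium route also reaches Nr4a1, through calmodulin kinases and calcineurin to MEF2 factors, which class IIa histone deacetylases hold inactive. Of 24 genes of this route tested, 3 rose, 0 fell (2 with an unadjusted p under 0.05; DESeq2 called 1 and limma-voom 0) and 21 did not pass, with a median of 0.15. Among all genes tested, 3.26% were called higher and 1.37% lower. Camk4, a calmodulin kinase gene, rose from 4.03 and 5.05 CPM to 9.19 and 10.8 CPM (1.14 ± 0.22 SE, edgeR adjusted p = 0.0276), Camk1d by 0.74 ± 0.16 on the log2 scale and the deacetylase gene Hdac7 by 0.64 ± 0.14. None of the 3 passed with the length trend removed (0.79, 0.55 and 0.48) or without dexamethasone replicate 2 (1.02, 0.68 and 0.63), and Hdac7 did not pass without dexamethasone replicate 1 (0.64) or PBS replicate 2 (0.57) either.

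Of 14 tested genes of dimer partners and cofactors, 2 fell, Nr0b2 and Fhl2, a LIM domain protein gene. The shares over all genes tested were 3.26% higher and 1.37% lower. In this list 0 rose (5 with an unadjusted p under 0.05; DESeq2 called 3 and limma-voom 0), and 12 did not pass. Fhl2 stood at 29.4 and 32.0 CPM in the PBS libraries and 17.4 and 14.7 CPM in the dexamethasone libraries (−0.93 ± 0.16 SE, edgeR adjusted p = 0.0197; −0.82 and not passing without dexamethasone replicate 2). The retinoid X receptor genes Rxra and Rxrb, at 0.34 ± 0.14 and −0.03 ± 0.14, did not pass, and Rxrg had too few counts.

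Genes described as NR4A targets were followed in 3 settings, beside shares of 3.26% called higher and 1.37% called lower over all genes tested. Among genes of steroid-making cells, known as targets in several species and cell types, 1 of 7 tested fell, Cyp17a1, and 6 did not pass, with a median log2 fold change of −0.56. At an unadjusted p under 0.05 in edgeR, 4 of the 7 were lower (Star, Cyp11a1, Cyp11b2 and Cyp17a1) and 0 higher. Of all 16027 genes tested, 2106 were lower and 2297 higher at that threshold. DESeq2 called 3 of the 7 lower and limma-voom 1. Cyp17a1, a steroid hydroxylase gene that the adult mouse adrenal hardly expresses, was at 3.20 and 4.28 CPM after PBS and at 1.04 and 1.34 CPM after dexamethasone, and it did not pass with the length trend removed (−1.44). Star, whose protein carries cholesterol into mitochondria, stood at 22230 and 18970 CPM after PBS and 13220 and 13560 CPM after dexamethasone (−0.62 ± 0.15 SE, edgeR adjusted p = 0.0553). Cyp21a1, the gene of a steroid hydroxylase, stood at 9521 and 11150 CPM in the PBS libraries and at 8068 and 8436 CPM in the dexamethasone libraries (−0.33 ± 0.15 SE, adjusted p = 0.206). Its reads may be shared with a near-identical pseudogene. Hsd3b1, whose family has near-identical copies, stood at −0.33 ± 0.16 (0.220). Of the 7 tested target genes of Nr4a2 in dopamine neurons, which chromaffin cells partly share, none passed in edgeR (3 with an unadjusted p under 0.05, all higher; DESeq2 called 1 and limma-voom 0), and Th, the gene of tyrosine hydroxylase, stood at 0.05 ± 0.27. Of 10 tested targets in muscle and liver metabolism 1 fell, the enolase gene Eno3 (−0.71 ± 0.17, adjusted p = 0.0483), and 1 rose, the lipin gene Lpin1 (0.88 ± 0.18, adjusted p = 0.0340). Eno3 did not pass without dexamethasone replicate 2 (−0.60) or PBS replicate 2 (−0.61), and neither gene passed with the length trend removed (−0.46 for Eno3, 0.61 for Lpin1).

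The element that NR4A proteins bind was rare in promoter windows. An NBRE stood in 146 of 11701 tested genes with a RefSeq window (1.25%), in 5 of 158 genes called lower (3.16%) and in 3 of 401 called higher (0.748%). The 5 were Akr1b7, Nhp2, Tbxa2r, Tmem251 and 2010003K11Rik, and they were picked after their values were seen. Akr1b7, an aldo-keto reductase gene, stood at 2011 and 3216 CPM in the PBS libraries and 1279 and 998.8 CPM in the dexamethasone libraries. On the 3 target lists, Star, Cyp11b2, Cyp17a1, Cyp21a1, Ret and Slc2a4 had no RefSeq window to search. Among the listed genes with a window, 1 held an NBRE, Ddc, the gene of a catecholamine synthesis enzyme. TGACG stood in 38.6% of the windows of lower genes, 30.2% of those of higher genes and 33.6% of all tested. The lower genes include Nr4a1 and Nr4a3, and the windows were not matched for G and C content. The glucocorticoid receptor core AGAACA stood in 13.9%, 16.7% and 15% of the windows of lower, higher and all tested genes.

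The genes whose profiles over the 4 libraries lay nearest to each member differed between the members. Likeness was the Euclidean distance between log2 CPM values centred on each gene's mean, over 14040 candidate genes, and the treatment difference is part of the profile that was matched. For Nr4a3 the nearest was Ier2, an immediate early gene, at a distance of 0.07, followed by Psat1, a serine synthesis gene (0.09), the growth factor gene Vegfc (0.11), Insig1, a regulator gene of sterol synthesis (0.11), and Shb, an adaptor protein gene (0.12). Ier2 stood at 31.7 and 37.2 CPM in the PBS libraries and 17.7 and 20.6 CPM in the dexamethasone libraries.

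For Nr4a2 the nearest were Gdf9 (0.24), Trmt61b (0.28), Socs3 (0.29), Emd (0.29) and Dxo (0.30), all high in PBS replicate 2 alone. Socs3, the gene of a feedback inhibitor of cytokine signalling, stood at 4.89 and 17.3 CPM in PBS replicates 1 and 2 and at 4.32 and 4.43 CPM in dexamethasone replicates 1 and 2. Emd, the emerin gene of the nuclear envelope, stood at 54.8 and 255 CPM in the PBS libraries and at 44.0 and 51.5 CPM in the dexamethasone libraries. None of the 5 passed in edgeR (Gdf9 passed by DESeq2, adjusted p = 0.0492). Without PBS replicate 1 their log2 fold changes ran from −1.95 for Dxo to −2.58 for Trmt61b. Nothing is read from these values, since the genes were picked by a profile that is high in PBS replicate 2 alone. Nr4a1 had no near match, with Vmn2r89 at 0.69 and Rassf10, Ccr2, Aqp5 and Cyp26b1 at 1.36 to 1.44. Vmn2r89, a vomeronasal receptor gene, had 1 count in each dexamethasone library and at most 1.73 CPM in a PBS library. Cyp26b1, which encodes an enzyme that breaks down retinoic acid, stood at 25.1 and 17.3 CPM in the PBS libraries and at 6.51 and 4.11 CPM in the dexamethasone libraries.

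The genes next to the members were read as well. Of 11 tested among the 12 nearest protein-coding genes, 2 on each side, none passed in edgeR (5 with an unadjusted p under 0.05; DESeq2 called 1 and limma-voom 0). Grasp, 21.5 kb on the lower coordinate side of Nr4a1, stood at 20.1 and 20.2 CPM in the PBS libraries and 25.6 and 29.6 CPM in the dexamethasone libraries. Atg101, an autophagy gene 9.48 kb on the other side, had 25.3 and 18.5 CPM in the dexamethasone libraries against 26.4 CPM (replicate 1) and 98.8 CPM (replicate 2) in the PBS libraries. It was thus high in PBS replicate 2, where Nr4a1 was the lower. Gpd2, 114 kb from Nr4a2, stood at 0.14 ± 0.15 (SE) on the log2 scale, and Stx17, 38.5 kb from Nr4a3, at 0.24 ± 0.17. Sec61b, 562 kb from Nr4a3, was the gene that passed by DESeq2 (−0.69, against −0.67 ± 0.21 in edgeR).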

How the data were processed

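RNA of 4 pooled adrenal libraries was sequenced. The authors deposited raw read counts for each gene; per the submitters' processing notes CASAVA 1.8, STAR 2.5, HTSeq 0.6.1 and the mm10 (GRCm38) build were used, with no role given, and strand use in counting is not given in the sources used here. Columns were matched to samples by D for dexamethasone, S for saline and the replicate number. The gene length comes from the same deposited table, and how it was computed is not stated.

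Genes were kept with filterByExpr (16027), scaled with TMM and tested with edgeR 4.0.16 (glmQLFit, glmQLFTest) in R 4.3.3, with group as the sole term, over all genes, with Benjamini-Hochberg adjustment and a threshold of 0.05. A standard error is the log2 fold change over the square root of F. Log2 CPM used a prior count of 2, and replicate ratios on the log scale a pseudocount of 0.1 CPM. Depth was 21904510 to 26948588 counts per library; exact binomial intervals (95%) cover counting error only. Libraries of a group differed by a chi-square of 24.1 (dexamethasone) and 31.7 (PBS) per degree of freedom, so none was counted as a repeat. The p-values set a difference against the spread between pools. For each gene edgeR estimates that spread partly from all genes tested, and not from the gene's own libraries alone.

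Members and lists were chosen with earlier results of these data known, and the 244 list entries were all matched, 2 of them by an older symbol. Named genes were the members, the genes of each list that passed (up to 6) with abundant others, the 5 nearest profiles (predicted genes and pseudogenes left out) and the 2 nearest protein-coding genes on each side; Maff, Egr1 and Sik1 were picked after their values were seen. Alternatives were DESeq2 1.42.0, limma-voom (limma 3.58.1), other scalings, no filter, a replicate block, removal of a linear trend with log2 length, and each library left out.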

Additional observations from a re-analysis of the deposited data

How the results depend on the processing

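The 3 members kept the direction of their difference in all 11 alternatives. Their log2 fold changes ran from −3.85 to −2.71 (Nr4a1), −2.28 to −0.44 (Nr4a2) and −1.01 to −0.69 (Nr4a3) with a library left out, and from −3.39 to −3.27, −1.64 to −1.30 and −0.97 to −0.75 otherwise. Where a library was left out, the lone library of its group was assumed to vary like those of the other group. Shares of the summed CPM per kilobase with 1 library each were 63.5% to 85.4%, 1.73% to 10.1% and 12.8% to 26.3% after PBS, and 37.8% to 40.5%, 8.25% to 8.63% and 50.8% to 54.0% after dexamethasone, for Nr4a1, Nr4a2 and Nr4a3. Without length scaling they were 28.3%, 7.06% and 64.6% after dexamethasone.

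Counts of calls moved more. All genes higher (523) and lower (219) numbered 337 to 1595 and 147 to 1747 with a library left out, 913 and 868 by DESeq2, 1384 and 1329 with no filter, 244 and 89 with a replicate block; 893 were higher with library totals and 331 with the length trend removed. The lists are given in the order nuclear receptors, cyclic AMP route, calcium route, cofactors, steroid targets, dopamine neuron targets, metabolic targets, immediate early genes. With a library left out, higher members numbered 1 to 4, 3 to 7, 0 to 5, 0 to 4, 0, 0 to 1, 1 and 1 to 4, and lower members 2 to 6, 1 to 2, 0 to 2, 0 to 3, 1 to 3, 0, 0 to 2 and 6 to 15. By DESeq2, 2 receptors, 5 cyclic AMP genes, 3 cofactors and 1 dopamine target were higher, and 4 receptors, 0 cyclic AMP genes, 1 calcium gene and 3 steroid targets lower. With no filter the higher were 2 receptors, 5 cyclic AMP, 5 calcium, 4 cofactor and 1 dopamine genes, and the lower 5 receptors, 2 cyclic AMP, 1 calcium, 4 steroid and 13 immediate early genes. With library totals 2 receptors, 5 cyclic AMP genes, 2 cofactors and 1 dopamine target were higher, and 1 receptor, 1 cofactor and 0 metabolic targets lower. With the length trend removed 0 receptors, 0 calcium and 0 metabolic genes were higher, and 1 receptor, 0 cyclic AMP, 2 calcium, 1 cofactor, 0 steroid, 0 metabolic and 2 immediate early genes lower. With limma-voom 0 cyclic AMP and 0 metabolic genes were lower, and with DESeq2 size factors 1 immediate early gene was higher. The cause of these moves was not tested.

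Same-numbered libraries did not deviate together (correlation of deviations across genes −0.03). That value describes expression only and cannot tell whether same-numbered pools were collected or handled together. With the replicate block the members' log2 fold changes were −3.27, −1.37 and −0.85 (Nr4a1, Nr4a2, Nr4a3), 0 receptors, 1 calcium, 0 metabolic and 1 immediate early gene were higher, and 1 receptor, 0 cyclic AMP genes, 0 cofactors and 0 metabolic genes lower.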
